A study of Mus musculus with 2 samples.

Results

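The genes described here are 10 that report on signalling through ERK, the last kinase of the RAS, RAF, MEK and ERK cascade. They comprise 5 dual-specificity phosphatase genes (Dusp1, Dusp2, Dusp4, Dusp5 and Dusp6), the Sprouty genes Spry1 and Spry2, and the immediate-early transcription factor genes Egr1, Fos and Fosl2. They were taken by gene name from the annotation of the array, where all 10 had a probe. Fosl2 had 2 probes and the other 9 genes had 1 each, 11 probes in all, on an array that measured 13773 genes. Expression was compared between 2 arrays of RAW264.7 cells. This macrophage-like mouse line comes from a tumour raised with Abelson leukaemia virus. The first array holds cells with the genotype control. The second holds cells with the genotype Lamtor1 knockdown, in which a lentivirus delivered short hairpin RNA from a pair of vectors against Lamtor1. The labels describe infection followed by limiting dilution under the same text for both samples. They do not say what the control cells received or whether either sample grew from 1 clone, and they name no stimulation or serum starvation.

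When ERK is active it enters the nucleus and phosphorylates factors of the ETS family that sit with the serum response factor SRF on promoters such as those of Fos and Egr1. These immediate-early genes are transcribed without new protein synthesis. Among the genes that follow are brakes on the same cascade. DUSP proteins remove phosphate from ERK and related kinases, with DUSP1, DUSP2, DUSP4 and DUSP5 in the nucleus and DUSP6 in the cytoplasm, and Sprouty proteins act further up, between receptors and RAF. Lamtor1 anchors the Ragulator complex to late endosomes and lysosomes, and its partners Lamtor2 and Lamtor3 hold MEK1 and ERK there.

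Promoters of the 3 members that were at least 2-fold lower in the knockdown are shown first, so that their sequences stand beside the values given further on. They come from RefSeq in the GRCm38.p6 build. Each window is the 250 bases before the annotated start of the gene, on the plus strand and written 5′ to 3′, and capitals mark matches to the motifs named in the next paragraph. The windows are chr2:127335909-127336158 for Dusp2, chr10:99262981-99263230 for Dusp6 and chr12:85473640-85473889 for Fos.
Dusp2: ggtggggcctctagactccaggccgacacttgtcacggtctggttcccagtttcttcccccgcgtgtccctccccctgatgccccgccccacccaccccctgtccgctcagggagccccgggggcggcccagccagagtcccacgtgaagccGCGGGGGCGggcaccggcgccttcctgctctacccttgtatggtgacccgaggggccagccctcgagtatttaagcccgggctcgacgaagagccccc
Dusp6: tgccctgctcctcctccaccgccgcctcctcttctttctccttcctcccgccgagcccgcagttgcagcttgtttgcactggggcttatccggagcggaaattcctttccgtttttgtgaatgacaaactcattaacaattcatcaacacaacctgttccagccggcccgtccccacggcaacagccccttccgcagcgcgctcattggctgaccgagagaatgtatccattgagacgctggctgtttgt
Fos: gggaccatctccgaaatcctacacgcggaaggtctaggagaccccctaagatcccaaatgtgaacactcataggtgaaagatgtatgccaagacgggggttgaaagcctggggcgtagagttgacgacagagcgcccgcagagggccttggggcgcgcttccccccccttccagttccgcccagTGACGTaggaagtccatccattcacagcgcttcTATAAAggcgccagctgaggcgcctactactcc

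Both strands were searched for 8 motifs. The CArG box is bound by SRF, and 1.47% of the 32851 promoter windows of this length in the RefSeq table hold it. TGACGTCA, the cAMP response element, is in 1.55% of windows, and its first 6 bases, TGACGT, are in 6.47%. TGANTCA, bound by FOS and JUN dimers, is in 6.75%, GCGNGGGCG, bound by EGR proteins, in 4.70%, and CCGGAA, the core of many ETS sites, in 12%. TCACGTGA, an E-box of the kind that TFEB binds, is in 0.785%. TATAAA, the TATA box, is in 12.4%. The searches for TGACGT and TATAAA were added after the windows had been seen, and every TGACGTCA match contains TGACGT. Of the 3 windows, Dusp2 holds GCGNGGGCG from base 98 to base 90 before the start. Fos holds TGACGT from base 66 to base 61 and TATAAA from base 33 to base 28 before the start, and Dusp6 holds none of the 8. Among the other members with an entry, Dusp1 holds TGACGTCA from base 143 to base 136 and TGACGT also from base 191 to base 186. Dusp5 holds a pair of adjoining CArG boxes, from base 82 to base 63, and TGACGT from base 56 to base 51. Fosl2 holds GCGNGGGCG from base 79 to base 71, and neither Spry window holds any of the 8. Promoters of Dusp4 and Egr1 were not examined, so nothing is said of their motifs. A match describes letters in the window and is not evidence of binding. Bases further upstream than the 250 of each window were not searched, so a motif absent here may still lie there.

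There was 1 array per group, so nothing could be tested, and the differences have no replicate check. Probes that the scanner did not flag as well above background are called dim. Precision is limited by this number of arrays. A level is the log2 of the processed intensity after scaling to the array's 75th percentile, and a difference is the knockdown level minus the control level. Levels of different probes are not set against each other, because probes differ in how well they bind. The scanner's flag put 53.3% of the control spots and 52.9% of the knockdown spots well above background. Lamtor1, the targeted gene, had a level of 4.10 in control cells and -0.43 in knockdown cells, 4.34% of the control signal. All 9 macrophage markers examined, among them Csf1r, Cd14 and Spi1, were well above background on both arrays. None of 4 epithelial and none of 3 B cell markers was measured. Of 4 fibroblast markers Pdgfrb alone was measured, on the control array only, and of 3 T cell markers Lck and Cd3e were. Among the macrophage markers, Fcgr3 and Cd68 were 2.86-fold and 2.33-fold higher in the knockdown and Adgre1 was 2.95-fold lower. The part of these differences in the results below was not tested. In bulk RNA, fewer cells expressing a gene and less RNA per cell cannot be told apart.

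The ERK feedback and immediate-early genes differed between the arrays in both directions. Dusp2, Dusp6 and Fos were at least 2-fold lower in the knockdown, Dusp4 and Spry2 were at least 2-fold higher, and Dusp1, Fosl2 and Egr1 stayed within 2-fold. Dusp5 and Spry1 were not well above background on either array and were not counted. Of the 8 measured members, 3 were thus at least 2-fold lower (37.5%), where 8.35% of all measured genes were. At least 2-fold higher were 2 of the 8 (25%), where 9.00% of all measured genes were. The members, and the lists further on, were chosen with earlier results of these data known, so such shares only describe them. Where a probe was dim on 1 array its fold is written as "at least" a value. That bound compares the bright array with the faintest signal flagged as well above background on the dim array, or with the dim signal itself if that was larger. Counted by bounds, the higher members were again 2, beside 7.73% of all genes. Spry2 is measured only through the knockdown array, where it is the brighter. The median difference of the 8 members was -0.17, beside -0.05 over all measured genes.

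**Figure D1:**
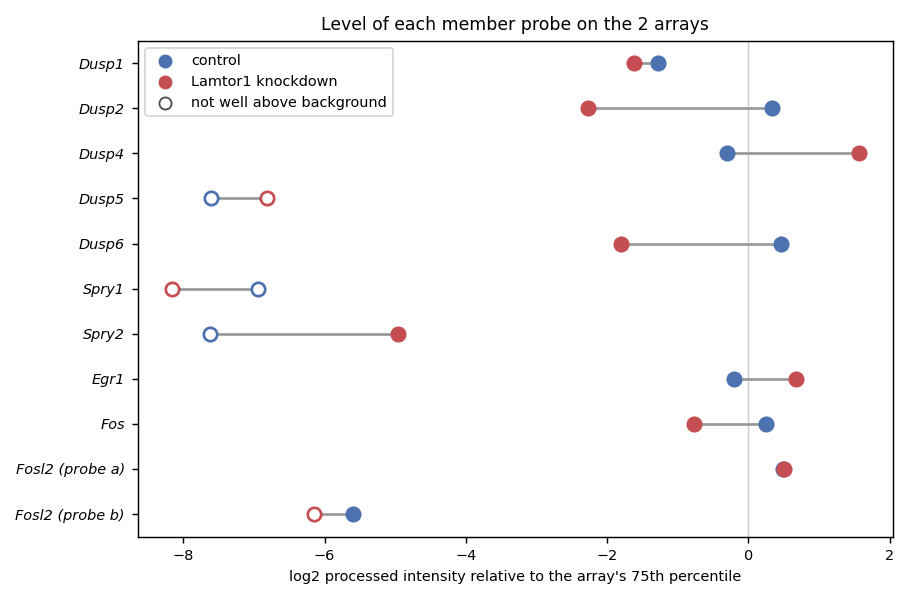
Level of each of the 11 member probes on the control array (blue) and the knockdown array (red), as log2 processed intensity relative to the 75th percentile of the array. Each circle is 1 probe on 1 array, open where the probe was not well above background, and Fosl2 probe a is the brighter of its pair. Dusp2, Dusp6 and Fos sit lower in the knockdown, Dusp4 and Egr1 sit higher, and Dusp5 and Spry1 are open on both arrays.

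Of the phosphatase genes, Dusp2 and Dusp6 were lower in the knockdown and Dusp4 was higher. Dusp2, also known as PAC1, encodes an inducible nuclear phosphatase of blood cells. Its processed intensity was 1481 in control cells and 259.9 in knockdown cells, levels of 0.34 and -2.27. The difference of -2.61 makes it 6.10-fold lower, at 16.4% of the control, and places it at rank 325 from the lowest of the 13773 genes. Dusp6, or MKP-3, encodes the cytoplasmic phosphatase that is selective for ERK, and it is a common readout of ERK activity. Its intensity was 1614.5 in control cells and 360.8 in knockdown cells, levels of 0.46 and -1.80. Its difference was -2.26, which is 4.79-fold lower and rank 440 from the lowest. On both genes the control signal was the clearly higher of the 2, and both were well above background on each array.

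Dusp4, or MKP-2, is a nuclear phosphatase for ERK and for JNK. Its intensity was 949 in control cells and 3709.9 in knockdown cells, levels of -0.30 and 1.56. It was 3.65-fold higher, a difference of 1.87 and rank 625 from the highest. Dusp4 thus went the opposite way to Dusp2 and Dusp6, which also target ERK.

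Dusp1, or MKP-1, is an immediate-early phosphatase gene whose product acts mainly on p38 and JNK in macrophages. Its intensity was 485 in control cells and 409.6 in knockdown cells, levels of -1.27 and -1.62. The difference was -0.34, a fold of 1.27. The scanner software's own error estimate was 10% of the signal for each bright spot, which gives 0.21 on the log2 scale for this difference. That error covers the spot and the scan, not cultures or labelling. Dusp5, the nuclear phosphatase that is specific for ERK, had intensities of 6.01 and 11.2, with error estimates of 99.6% and 57.1% of the signal, and no fold is given. The first of these is a surrogate that the scanner software puts in place of a signal it cannot tell from background. These 5 genes were therefore split among lower, higher, near level and dim.

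The Sprouty genes were close to the limit of the array. Sprouty proteins are induced by ERK and hold back RAS and RAF activation by receptor tyrosine kinases. Spry2 had an intensity of 5.93 in the control, where it was dim, and 40.3 in the knockdown, where it was well above background. Its levels were -7.63 and -4.96, and it was at least 2.01-fold higher in the knockdown. With normexp, a background correction that shrinks differences between dim signals, its difference was 0.51, which is 1.43-fold and under the 2-fold line. Spry1 had intensities of 9.56 and 4.39, neither well above background and the second a surrogate, and no fold is given. The Sprouty genes thus hold 1 bound and no fold measured on both sides.

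Of the immediate-early transcription factor genes, Fos was lower, Egr1 was higher by less than 2-fold and Fosl2 was level. Fos encodes a subunit of the AP-1 dimer and was the only member spotted repeatedly, with 10 spots of its probe on each array. On the control array the 10 spots gave levels from 0.14 to 0.32 with a median of 0.27, and on the knockdown array from -0.89 to -0.65 with a median of -0.78. The spots of the arrays did not overlap. The mean level was 0.25 ± 0.06 (SD over 10 spots) in control cells and -0.77 ± 0.07 in knockdown cells. The difference between spots at the same position ran from -1.11 to -0.93, with a mean of -1.03 ± 0.05 (SD over 10 spots), which is 2.04-fold lower. These spots share 1 RNA sample per array, so their spread says nothing of cultures. Fos lies close to the 2-fold line, and its difference was -0.94 with normexp and -0.93 after median scaling, both just inside it.

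**Figure D2:**
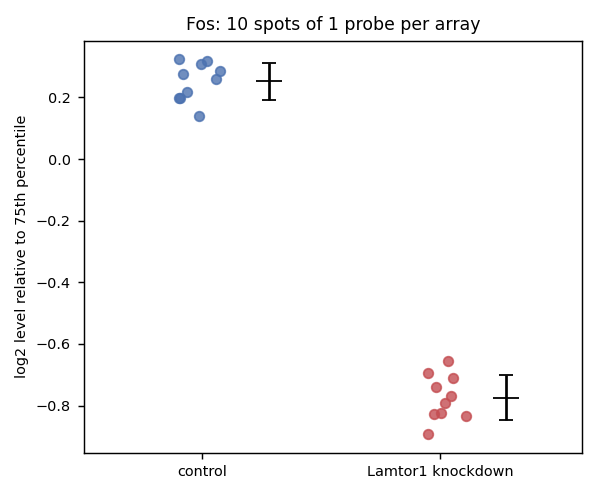
Levels of the 10 Fos spots on the control array (blue) and the 10 on the knockdown array (red), as log2 processed intensity relative to the 75th percentile. Each point is 1 spot, spread sideways for visibility, and the black bars give the mean and SD over spots. The control spots lie from 0.14 to 0.32 and the knockdown spots from -0.89 to -0.65.

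Egr1 encodes a zinc-finger factor that rises quickly in response to ERK. Its intensity was 1022.3 in control cells and 1996 in knockdown cells, levels of -0.20 and 0.67. It was 1.82-fold higher, a difference of 0.87 with a scanner error estimate of 0.20. Egr1 was thus higher on the array on which Fos was lower. SRF and ETS factors are known to act on the promoters of both. Fosl2, which encodes the AP-1 subunit FRA-2, had intensities of 1650.1 and 1777 at its brighter probe, levels of 0.49 and 0.50. The difference was 0.01. Its other probe was dim, at 24.2 in control cells and 17.7 in knockdown cells, the last not well above background, and its bound was at least 1.28-fold lower.

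The probes are placed by the files on the mm9 build, and whether each lies in an exon, intron or UTR was not examined, since no annotation of that build was used. The Dusp2 probe lies at chr2:127163930-127163989, the Dusp6 probe at chr10:98729985-98730044 and the Dusp4 probe at chr8:35882045-35882104. The Fos probe lies at chr12:86817900-86817959, the Dusp5 probe at chr19:53615682-53615741 and the Spry1 probe at chr3:37543403-37543462. The brighter Fosl2 probe lies at chr5:32460076-32460135 and the dim one at chr5:32455088-32455147. The Spry2 probe is listed from high to low, over chr14:106291845-106291904. The Dusp1 probe is also listed from high to low, over chr17:26642526-26642536, which is shorter than the 60 bases of a probe, so what part of the gene it reads is uncertain. The position of the Egr1 probe is not given here. For all members but Fosl2 a single probe stands for the gene.

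**Figure D3:**
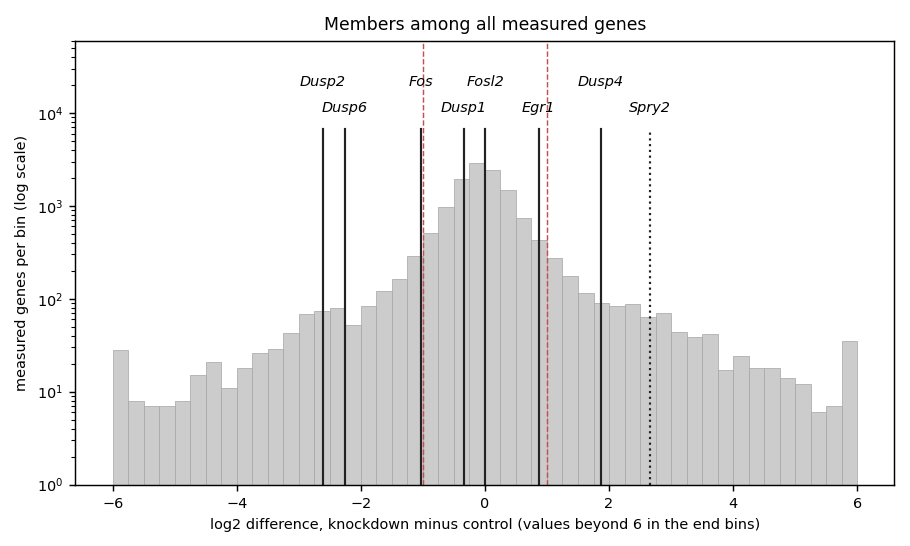
Number of measured genes, on a log scale, by log2 difference (knockdown minus control) in bins of 0.25, with the 8 measured members as vertical lines and the 2-fold lines dashed in red. The dotted line is Spry2, which was dim in the control, at its plain difference of 2.66. Dusp2 and Dusp6 lie in the lower tail of the 13773 genes, Dusp4 lies in the upper tail, and Fos lies on the lower 2-fold line.

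In the cascade itself most genes lay within 2-fold, as did most genes on the array. Of 33 genes from adaptors to ERK substrates, 29 were measured, 26 of these stayed within 2-fold, 1 was higher and 2 were lower by 2-fold or more, with a median of 0.08. Over all measured genes 9.00% were higher, 8.35% were lower and the median was -0.05. Of the 28 cascade genes above background on both arrays, 0 were higher and 2 lower, beside 6.31% and 5.52% of all such genes. Rasgrp4, an activator of RAS in myeloid cells, was 6.73-fold lower, from -1.57 to -4.32 (normexp, 3.88-fold). Rps6ka5, the kinase MSK1 that ERK and p38 activate, was 2.11-fold lower (1.81-fold with normexp). Rps6ka2, a ribosomal S6 kinase and ERK substrate, was dim in the control, with a bound of at least 6.67-fold higher (normexp, 2.66-fold). Kinases of the core, singled out after their values were seen, had differences of 0.27 for Map2k1 (MEK1), 0.36 for Map2k2 (MEK2) and -0.18 for Mapk3 (ERK1). Also singled out later, Lamtor3, the Ragulator subunit that binds MEK1, was at 0.80 and its partner Lamtor2 at -0.08.

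Further brakes on the cascade went both ways. Of 19 other feedback genes 15 were measured, 5 were higher and 1 was lower by 2-fold or more and 9 lay between, with a median of -0.30. The array as a whole had 9.00% higher, 8.35% lower and a median of -0.05. Of the 13 feedback genes above background on both arrays, 3 were higher and 1 lower, beside 6.31% and 5.52% of all such genes. Cblb, a ubiquitin ligase that turns down receptor signalling, was 6.73-fold higher, from -2.95 to -0.19. Pea15a, which holds ERK in the cytoplasm, was 2.80-fold higher, and Rasal3, a RAS GTPase-activating protein of blood cells, 2.15-fold (1.94-fold with normexp). Dusp9, a cytoplasmic ERK phosphatase related to Dusp6, was dim in the control, with a bound of at least 7.35-fold higher (normexp, 2.56-fold). Dab2ip, also a RAS GTPase-activating protein, had a bound of at least 8.04-fold higher on the same terms (normexp, 3.31-fold). Spred1, a relative of the Sprouty genes, was 2.05-fold lower at its brighter probe, from 2.52 to 1.49, with the other probe at -0.98, and it lay just inside 2-fold with normexp (-0.998) and after median scaling. The count of 1 lower gene rests on it.

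All 7 genes of the list named for JNK and p38 phosphatases were measured. Within 2-fold were 6, and 1 was lower, beside 8.35% lower and 9.00% higher over all genes. Which kinases each product acts on was not examined. The median was -0.04, close to the -0.05 of all genes. Dusp10, or MKP-5, was at least 1.99-fold lower, so that by its bound it is also inside the 2-fold line, and with normexp its difference was -0.37. Dusp8, singled out after its values were seen, had a difference of 0.53 at its brightest probe. Its other probe, dim in the control, had a plain difference of 4.37. With normexp, where the brightest probe was chosen anew, Dusp8 was 4.43-fold higher, and the list then held 1 higher gene and no lower one. The value with normexp may therefore come from the other probe.

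The wider immediate-early group was also mixed. Of 35 other such genes 32 were measured, all on both arrays, and 8 were lower and 4 higher by 2-fold or more and 20 lay between, with a median of -0.32. All measured genes had 8.35% lower, 9.00% higher and a median of -0.05. Nr4a1, the orphan nuclear receptor NUR77, was 12.9-fold lower, from 0.06 to -3.64 (normexp, 8-fold), and its relative Nr4a2 was 2.88-fold lower. Trib1, a pseudokinase that binds MEK1 and the ubiquitin ligase COP1, was 5.33-fold lower at its brighter probe (normexp, 3.44-fold), and its 2 probes ran from -2.42 to -2.22. Ier5l was 2.99-fold lower. Plk2, a polo-like kinase, was 11.3-fold higher, from -2.52 to 0.97. Fosb, an AP-1 subunit like Fos, was 3.25-fold higher, from -4.81 to -3.11 (1.96-fold with normexp).

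Genes used as a signature of ERK output in other cell types were lower more often than higher. Of 18 genes 14 were measured, 6 were at least 2-fold lower (5 by bounds, 4 with normexp), 1 was higher and 7 lay between. Among all genes 8.35% were lower (4.45% with normexp) and 9.00% higher. Of the 11 signature genes above background on both arrays, 4 were lower and 0 higher, beside 5.52% and 6.31% of all such genes. The median was -0.91, beside -0.05 over all genes, and -0.52 with normexp. Of these 14 genes, 4 are also in the immediate-early group. Etv5, an ETS factor gene that ERK induces, was 5.73-fold lower, from 2.04 to -0.47. Phlda1 was 8.17-fold lower, from -1.20 to -4.23 (normexp, 4.55-fold), and Maff, a small MAF factor gene, 2.58-fold lower. The ephrin receptor gene Epha2 was dim in the knockdown, with a bound of at least 5.84-fold lower (normexp, 2.73-fold), and the cytokine gene Lif at least 1.83-fold lower. Hbegf, a ligand of the EGF receptor, was dim in the control, with a bound of at least 4.88-fold higher (normexp, 2.07-fold). Spry4, of the same list, was not measured.

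**Figure D4:**
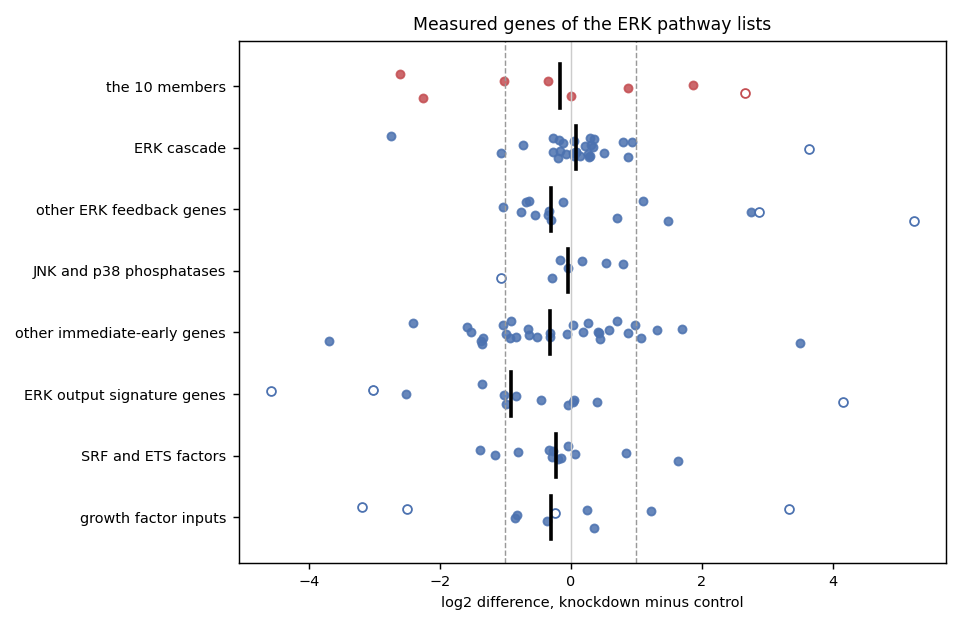
Log2 difference (knockdown minus control) of each measured gene, by list, with the measured among the 10 ERK feedback and immediate-early members in red and 7 further lists in blue. Open circles are genes well above background on 1 array only, at their plain difference, black bars are medians and dashed lines mark 2-fold. Phlda1 and Lif overlap at -3.03, the median is -0.17 for the members and -0.91 for the output signature, and the members fall on both sides of 0.

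Transcription factors that carry the ERK signal to these promoters, and receptors that feed the cascade, completed the comparison. All 12 SRF, MRTF and ETS factor genes were measured, 9 stayed within 2-fold, 1 was higher and 2 were lower, and the median was -0.23. These counts, and those of the receptors, stand against 9.00% higher and 8.35% lower among all genes. Srf itself had a difference of -0.27 and Elk1 of -0.19 at its brightest probe, with another probe at 0.90; both genes were singled out after their values were seen. Elk3 was 2.63-fold lower, from 1.90 to 0.51, with its 3 probes from -1.40 to -1.15, and Ets2 was 2.23-fold lower. Mrtfb, a cofactor of SRF, went the other way, from 0.37 to 2.00, a difference of 1.63. Of 16 growth factor and receptor genes 10 were measured, 2 were higher and 2 lower by 2-fold or more (1 lower by bounds), with a median of -0.30. Of the 6 above background on both arrays, 1 was higher and 0 lower, beside 6.31% and 5.52% of all such genes. Csf1, the growth factor of macrophages, had a bound of at least 2.40-fold higher (normexp, 1.58-fold). Csf2rb, the shared receptor chain for GM-CSF, was 2.34-fold higher at its brightest probe, a difference of 1.23. The other Csf2rb probe was at 0.91, inside 2-fold. Csf1r, the receptor of Csf1 and also singled out later, had a difference of -0.82 at its brightest probe. Its 3 probes ran from -1.34 to -0.82. Pdgfrb had a bound of at least 2.09-fold lower (normexp, 1.96-fold). Axl, at a plain difference of -2.51, was at least 1.25-fold lower by its bound.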

How the data were processed

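Per the labels' protocols, each sample's 200 ng of total RNA was labelled with Cy3 alone, 1 colour per array. Grouping followed the labels. The deposited scanner files give an intensity per spot on a linear scale, for which the submitters' processing notes name Agilent Feature Extraction 10.7.3.1. In the scan settings, as the deposited file headers give them, trends across the array were removed, local background was not subtracted, both arrays shared a slide and a scan, and probe positions are on mm9. The deposited value table holds the same intensity rounded: scanner values divided by it ran from 0.995 to 1.005, and its column medians were 28 and 27.8, so it is linear and uncentred.

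The log2 intensity was set relative to the 75th percentile of each array without control spots, which was 1172 in control and 1255 in knockdown cells. Outlier spots were left out, no spot was saturated, and repeated spots were averaged. Of 39429 probes, 26055 were named by accession, 3195 by symbol and 930 by an older symbol through RefSeq genes of GRCm38.p6, used for names only, and 9249 stayed unnamed. A gene took its brightest probe and counted as measured unless that probe was dim (not well above background) on both arrays. For 216 repeated probes the median SD of a difference at 1 spot position was 0.04 (log2). Alternatives used limma 3.58.1 for normexp with an offset of 50. The calculation was tested on simulated data. The simulated array copied the control array with added spot noise, and only genes above background there were shifted. Dim probes, bounds and normexp were thus not covered.

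Promoters of 8 members were used, without those of Dusp4 and Egr1. The members and lists were chosen with earlier results of these data known. The text names all members, and of each other list up to 6 genes at 2-fold or more with the largest differences, besides genes stated to have been singled out later. Not every listed gene is reported here. Counts used 2-fold, a log2 difference of 1.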

Additional observations from a re-analysis of the deposited data

How the results depend on the processing

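Each count of members at 2-fold was recomputed under 9 other settings and with counting by bounds, which was chosen after seeing the data. The lower count of 3 was between 2 and 4. It was 2 with normexp and after median scaling, where Fos lay inside 2-fold, and 4 without a filter on dim probes, which adds Spry1. The share of all genes that were lower was 4.45% with normexp, 7.46% after median scaling and 7.72% without the filter. The higher count of 2 was 1 with normexp and 1 over genes above background on both arrays, both times without Spry2. It was 3 at a 1.5-fold threshold, which adds Egr1. The share of all genes that were higher was 5.73% with normexp and 6.31% over genes above background on both arrays. No such share was computed at 1.5-fold. The median of the members was -0.0758 after median scaling, -0.31 as the median over probes and -0.34 over genes above background on both arrays. The median of all genes in the same settings was 0.0417, -0.06 and -0.05, in that order. Under the 6 alternatives that bear on single genes, Dusp2 ran from -2.65 to -2.37, Dusp6 from -2.30 to -2.07, Dusp4 from 1.79 to 1.96, Egr1 from 0.82 to 0.96 and Dusp1 from -0.39 to -0.25. Each of these 5 kept its direction in all 6. Spry2 ran from 0.51 to 2.76 and Fos from -1.07 to -0.93, both in 1 direction, and Fosl2 from -0.27 to 0.10, on both sides of 0. Background limits Spry1, Spry2 and Dusp5, whose signals are near or below the lowest that the scanner calls well above background. No paired analysis was possible because each group has 1 array.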

Other observations

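Dual-specificity phosphatase genes outside the lists above, grouped by symbol after the data were seen, included 7 that were measured. Of these, 4 stayed within 2-fold, 2 were higher and 1 was lower, beside 9.00% higher and 8.35% lower over all measured genes. Dusp13 was 6.79-fold higher in the knockdown, from -5.28 to -2.52 (2.83-fold with normexp), and Dusp23 was 3.40-fold higher, from -5.77 to -4.00 (1.62-fold with normexp). Dusp27 was dim in the knockdown, with a bound of at least 2.61-fold lower (normexp, 1.80-fold).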
